A study of Homo sapiens with 6 samples.

Results

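The Wnt pathway genes examined here were the 72 genes among the 26255 in the expression table whose symbols name a Wnt ligand, a Frizzled receptor or a regulator of the pathway. The rule used their symbols and no measured value, though it was set with earlier results of these data known. They comprised 19 ligands, 10 Frizzleds, 2 LRP co-receptors, 12 secreted antagonists and their Kremen receptors, 9 genes of the R-spondin branch, 2 genes of ligand secretion, 9 intracellular regulators and 9 nuclear factors. To find which mRNAs differ when Ephexin1 is depleted, the study sequenced total RNA from NCI-H1299 cells, a human lung cancer cell line. There were 3 shControl libraries, from cells with a pSilencer2.1-U6-neo control shRNA, and 3 shEphexin1 libraries, from cells with a pSilencer2.1-U6-neo Ephexin1 shRNA. These vector names are those of the labels, and the methods name a hygromycin version instead. The methods describe stable knockdown clones and the shEphexin1 library names share a stem, so all of them may come from 1 clone, and nothing says that libraries of a group came from separate cultures, so p values measure the spread between libraries, which may be technical. Control and depleted below mean shControl and shEphexin1. Values are FPKM, sequenced fragments scaled by transcript length and by library size, so that levels can be compared between genes. The table holds no read counts, and sequencing depth is unknown.

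Wnt ligands are lipid-modified secreted proteins that bind a Frizzled receptor together with LRP5 or LRP6 at the cell surface. In the canonical branch this stops the Axin and APC complex from marking β-catenin for destruction, and β-catenin then joins TCF/LEF factors at target genes, where it displaces TLE corepressors. Frizzleds also signal without β-catenin, through planar polarity proteins, calcium and JNK. The pathway is best known in lung for its part in branching of the airways and in the renewal of epithelial stem cells.

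Testing was limited to genes that reached 0.1 FPKM or more in 3 or more libraries, and differences were taken on log2(FPKM + 0.1), which understates changes of genes near the pseudocount. The groups were compared with limma, a linear model with moderated variances, and p values were adjusted over all 16020 genes tested (Benjamini-Hochberg). A gene was called when its adjusted p was at most 0.025 and its difference at least 2-fold, the thresholds of the study. Among the Wnt pathway genes 49 were tested and 23 were under the filter. All genes of the latter group stayed at or below 0.189 FPKM in every library, and 11 of them were listed at 0 in all 6 libraries. These 11 were WNT1, WNT3A, WNT5A, WNT7A, WNT8A, WNT9B, FZD10, DKK4, SFRP1, SFRP2 and TLE4. The other 12 were WNT2, WNT6, WNT11, FZD8, FRZB, WIF1, RSPO1, RSPO3, LGR5, LGR6, NKD1 and NKD2.

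The shEphexin1 cells had more mRNA of the ligand WNT7B and of the transcription factor TCF7, and less of the receptor FZD3, the agonist RSPO4 and the corepressor TLE1. These were the 5 Wnt pathway genes called, 2 higher and 3 lower among 49 tested. In bulk RNA, fewer cells with a transcript and less of it per cell cannot be told apart. Across all genes tested, 0.893% were called higher and 0.999% were called lower. The groups did not overlap for 11 Wnt pathway genes that were higher and 7 that were lower, where the background over all genes was 12.8% higher and 15.4% lower. At an adjusted p of at most 0.05, without the fold threshold, 9 of the 49 passed, and 7.01% of all genes did. The filter decides who is tested: RSPO4 and RNF43 passed it through the shControl libraries alone. Both are counted among the 7 lower genes with groups apart. SFRP5, counted among the 11 higher genes, reached 0.1 FPKM in 3 shEphexin1 libraries and 1 shControl library, so it too needed its higher group to be tested. The median log2 fold change was 0.16 over the 49 genes and -0.0093 over all genes. Above 0 were 31 of the 49, beside 7835 of all 16020 genes tested.

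**Figure D1:**
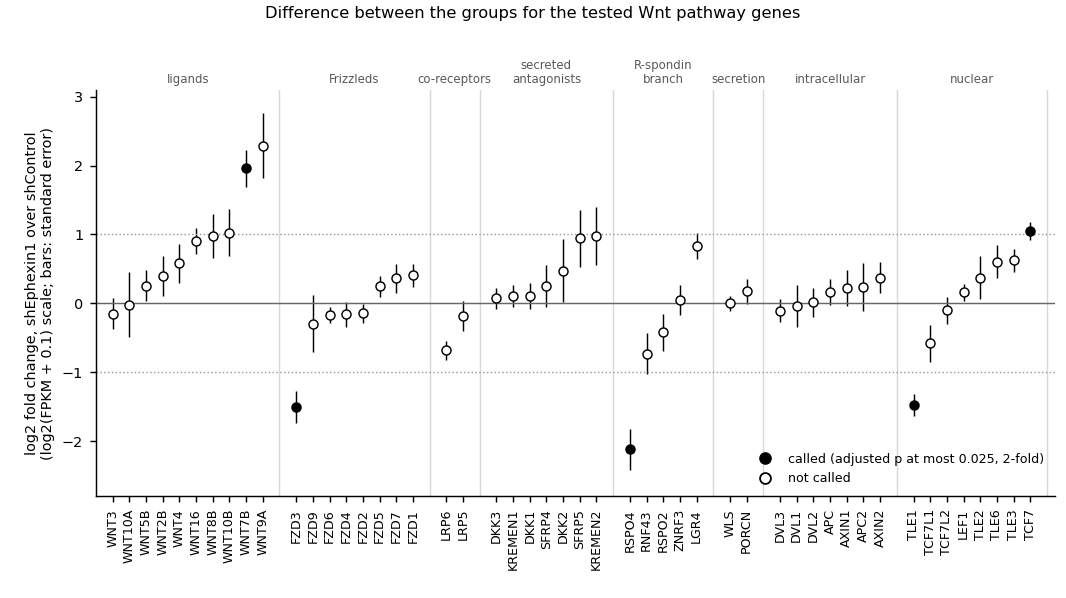
Log2 fold change of shEphexin1 over shControl (vertical axis, log2(FPKM + 0.1) scale) for the 49 Wnt pathway genes tested, in order within each role. Bars are standard errors of the moderated model, filled points mark the 5 genes called and dotted lines mark 2-fold. The filled points are FZD3, RSPO4 and TLE1 below the line and WNT7B and TCF7 above it, WNT9A has a large difference but a wide bar, and the value of RSPO4, listed at 0 in shEphexin1, is set by the pseudocount.

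The knockdown, the libraries and the cells were checked first. NGEF, which encodes Ephexin1, was at 13.3, 11.7 and 16.4 FPKM in control libraries against 9.81, 8.25 and 10.5 FPKM in depleted libraries, 68.9% of the control mean, with a limma adjusted p of 0.103. With the replicate number as a block the limma adjusted p was 0.00284, and the difference stayed under 2-fold. The groups did not overlap (p = 0.1 by an exact permutation test, two-sided, which cannot go lower with 3 against 3). These values are mRNA, and the study checked Ephexin1 protein in its stable knockdown clones by western blot. Replicate 2 of both groups departed from replicates 1 and 3 with GC content: across genes, which are not independent replicates, Spearman's rho between GC content and a library's deviation from its group mean was -0.797 and -0.867 in replicate 2 and 0.431 to 0.800 in the others. Libraries with the same replicate number deviated together in both groups (r = 0.234, 0.639 and 0.513 across genes for replicates 1, 2 and 3), so fits with the replicate number as a block are given where they change a call. Between different numbers r ran from -0.569 to 0.149, the latter for shControl replicate 3 with shEphexin1 replicate 1. Deviations from a mean of 3 libraries constrain each other, so these r are not independent and are limited grounds for the pairing. With the block 556 genes were called in place of 303, or 3.47% of those tested, and 6 of the 49 Wnt pathway genes. VIM was at 1979 to 2670 FPKM and KRT18 at 36.3 to 109 FPKM, while CDH1 and the lung lineage factor NKX2-1 were listed at 0 throughout, so the labelled cell type showed a vimentin-rich profile without those epithelial markers. All 11 markers of blood, endothelial and fibroblast cells were under 1 FPKM. The summed level of the 5 epithelial markers was 72.8 to 118 FPKM in control libraries against 39.2 to 58.4 FPKM in depleted libraries, carried by KRT8 and KRT18, and its part in the results below was not tested. The list did not move as one: EPCAM, at low levels, was higher with groups apart (0 to 0.0663 FPKM in control against 0.108 to 0.220 FPKM in depleted libraries). KRT19 was lowly expressed with overlapping groups.

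The start regions of TLE1 and TCF7, nuclear genes called in opposite directions, are shown because TCF7 encodes a TCF/LEF factor and TLE1 a corepressor of such factors. RefSeq (GRCh38.p14) gives 1 start for TLE1 and 2 for TCF7, and each window holds the 250 bases before a start, read along the gene's strand. Capitals mark the TCF/LEF core CTTTGA or CTTTGT on either strand (the letters ACAAAG are CTTTGT read from the other strand). The TLE1 window is chr9:81689548-81689797 (minus strand), and those of TCF7 are chr5:134115363-134115612 and chr5:134123368-134123617 (plus strand).
TLE1: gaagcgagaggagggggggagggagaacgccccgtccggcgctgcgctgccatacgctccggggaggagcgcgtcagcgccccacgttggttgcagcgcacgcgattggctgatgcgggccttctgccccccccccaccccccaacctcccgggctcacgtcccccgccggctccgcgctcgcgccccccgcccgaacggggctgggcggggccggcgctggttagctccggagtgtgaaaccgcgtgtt
TCF7 upstream start: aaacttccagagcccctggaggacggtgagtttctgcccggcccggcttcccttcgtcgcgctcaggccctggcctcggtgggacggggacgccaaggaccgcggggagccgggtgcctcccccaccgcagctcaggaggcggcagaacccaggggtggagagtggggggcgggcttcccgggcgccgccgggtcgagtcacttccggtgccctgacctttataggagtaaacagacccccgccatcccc
TCF7 downstream start: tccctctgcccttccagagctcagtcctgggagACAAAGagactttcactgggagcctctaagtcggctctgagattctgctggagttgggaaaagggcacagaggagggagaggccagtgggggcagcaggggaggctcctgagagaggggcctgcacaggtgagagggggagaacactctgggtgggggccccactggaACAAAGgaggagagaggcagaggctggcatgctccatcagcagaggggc
The downstream window of TCF7 held 2 matches, and neither the other TCF7 window nor that of TLE1 held any. Of all 35116 windows of this length, 22.8% held a match, and so did 11 of the 69 windows (15.9%) of the 52 Wnt pathway genes with an entry. For 13 of the Wnt pathway genes given below with an adjusted p, windows were searched singly, and 5 of these 19 windows (26.3%) held a match. A match is a run of letters and no evidence of binding.

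Among the ligands, WNT7B was the gene called. WNT7B, known for its roles in lung and vascular development, was at 1.10, 0.755 and 1.22 FPKM in control libraries against 4.38, 3.01 and 5.57 FPKM in depleted libraries. Every shEphexin1 library was above every shControl library, and the lowest of the former was more than double the highest of the latter. The mean rose from 1.02 ± 0.240 to 4.32 ± 1.28 FPKM (SD of 3 libraries), a log2 fold change of 1.96 (standard error, SE, 0.272, adjusted p = 0.0103 by limma). Within replicates 1, 2 and 3 the log2 differences were 1.91, 1.86 and 2.11, a narrow range. The gene lies on the minus strand of chromosome 22 (GRCh37, 46316246 to 46373042). Its call was lost without shControl replicate 1, 2 or 3 and without shEphexin1 replicate 1 or 3 (adjusted p from 0.0266 to 0.0592), while its log2 fold change stayed between 1.76 and 2.19 when any library was left out.

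WNT9A had a large difference and a large spread. It encodes another ligand and lies on chromosome 1 (GRCh37, 228106357 to 228135633). Its level was 0.532, 0.255 and 1.01 FPKM in control libraries against 2.10, 2.47 and 5.00 FPKM in depleted libraries. The groups were apart, and replicate 3 was the highest library on both sides. The means were 0.598 ± 0.381 and 3.19 ± 1.58 FPKM (SD of 3 libraries), with a log2 fold change of 2.29 (SE 0.472, adjusted p = 0.0343 by limma), so WNT9A was not called. With the replicate number as a block its adjusted p was 0.00125 and it was called, and its adjusted p lay between 0.000707 and 0.134 over 19 alternatives.

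WNT16, a ligand studied mainly in bone and blood stem cell formation, was at 1.17, 1.20 and 1.12 FPKM in control libraries against 1.87, 2.31 and 2.68 FPKM in depleted libraries. The shControl libraries were nearly level and all shEphexin1 libraries lay above them. The log2 fold change was 0.90 (SE 0.186, adjusted p = 0.0343 by limma), under the fold threshold. WNT16 lies on 7q, whose expressed genes had a median log2 fold change of 0.30 (408 genes), and with that median subtracted its value was 0.61.

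WNT8B and WNT10B, canonical ligands, were lowly expressed. WNT8B was at 0.210, 0.148 and 0.199 FPKM in control libraries against 0.462, 0.309 and 0.665 FPKM in depleted libraries. Its log2 fold change was 0.98 (SE 0.312, adjusted p = 0.113 by limma), and it was called only with a correction for GC content and transcript length (adjusted p = 0.0185, range over 18 alternatives 0.0185 to 0.293). WNT10B was at 0.139, 0.163 and 0.242 FPKM and at 0.322, 0.408 and 0.746 FPKM. For this gene the log2 fold change was 1.03 (SE 0.343, adjusted p = 0.126 by limma). Neither pair of groups overlapped, and neither gene passed the adjusted threshold.

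WNT5B, a ligand of the β-catenin-independent branch, was the most abundant ligand in all 6 libraries. It was at 10.6, 7.11 and 11.9 FPKM in control libraries against 13.2, 9.27 and 12.5 FPKM in depleted libraries, and the groups overlapped. Its log2 fold change was 0.25 (SE 0.225, adjusted p = 0.565 by limma). WNT5B lies on 12p, whose genes had a median log2 fold change of -0.43 (170 genes), and with that subtracted its value was 0.68. WNT3, a canonical ligand, was at 2.66 to 3.69 FPKM in control libraries against 2.196 to 3.58 FPKM in depleted libraries. WNT4 was at 0.646 to 0.823 and 0.711 to 1.42 FPKM, WNT2B at 0.389 to 0.589 and 0.503 to 1.00 FPKM, and WNT10A at 0.0504 to 0.327 and 0.0785 to 0.248 FPKM.

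Summed over the 19 ligands, the level was 18.4, 13.5 and 21.1 FPKM in control libraries against 28.4, 21.4 and 32.6 FPKM in depleted libraries, and the groups did not overlap. WNT5B made up 55.6 ± 2.47% of this sum in shControl and 42.7 ± 4.05% in shEphexin1 (SD of 3 libraries). The share of WNT7B was 5.77 ± 0.169% and 15.5 ± 1.52%, that of WNT9A 3.19 ± 1.46% and 11.4 ± 3.97%, and that of WNT3 18.4 ± 1.21% and 10.7 ± 1.71%. WNT3 followed WNT5B in every shControl library. In every shEphexin1 library WNT7B was above WNT3, while the range of WNT9A overlapped those of both. Neither gene for the secretion of ligands was called. WLS, the carrier that takes Wnt proteins to the cell surface, was at 48.5 to 55.8 FPKM in control libraries against 49.9 to 56.2 FPKM in depleted libraries, with a log2 fold change of -0.0011 (SE 0.105, adjusted p = 0.997 by limma). PORCN, the enzyme that attaches their lipid, was at 4.34 to 5.89 and 4.98 to 6.70 FPKM.

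**Figure D2:**
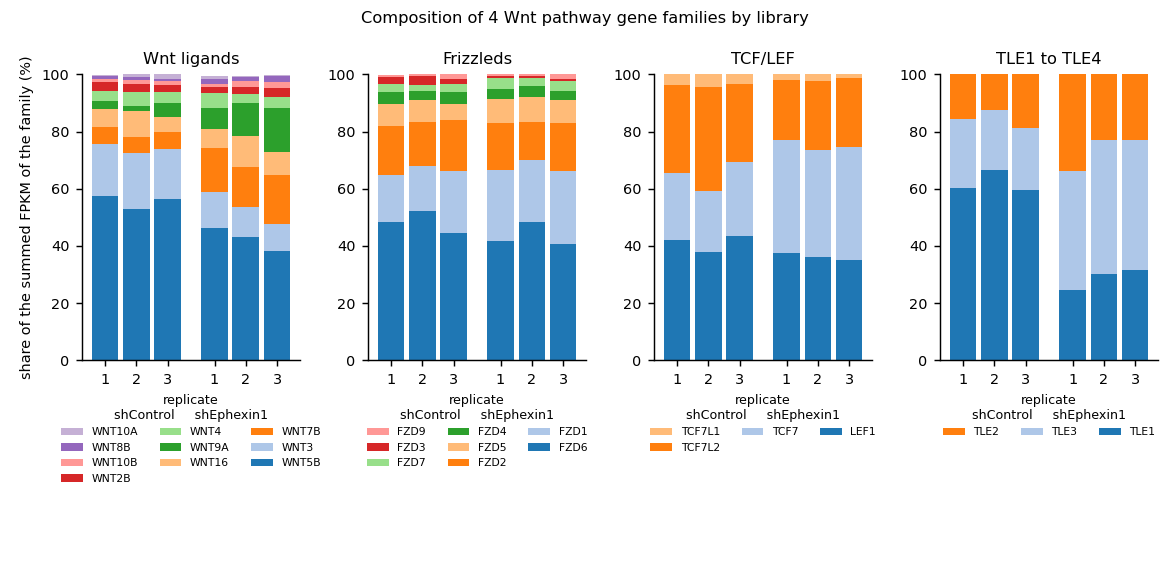
Share of each gene in the summed FPKM of its family (vertical axis, percent) in each of the 6 libraries, for the Wnt ligands, the Frizzleds, the TCF/LEF factors and TLE1 to TLE4. Genes under 1% in every library are not drawn. WNT7B and WNT9A take larger shares in the shEphexin1 libraries, FZD3 takes a smaller share of the Frizzleds and FZD1 and FZD5 larger ones, and TLE1 falls from 59.7 to 66.4% of its family to 24.6 to 31.5%.

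FZD3, known for axon guidance and planar polarity, was the only Frizzled called, and it was lower. It was at 1.38, 1.62 and 1.07 FPKM in control libraries against 0.355, 0.456 and 0.419 FPKM in depleted libraries. The highest shEphexin1 library was far below the lowest shControl library. The mean fell from 1.36 ± 0.275 to 0.410 ± 0.0509 FPKM (SD of 3 libraries), 30.2% of the control, a log2 fold change of -1.50 (SE 0.229, adjusted p = 0.0139 by limma). The log2 differences within replicates were -1.70, -1.63 and -1.17. FZD3 lies on the plus strand of chromosome 8 (GRCh37, 28351722 to 28431784), and its arm, 8p, had a median log2 fold change of -0.081. Without shControl replicate 1, 2 or 3 or without shEphexin1 replicate 1 or 3 it was no longer called (adjusted p from 0.0334 to 0.0851). With a pseudocount of 1 FPKM the log2 fold change was -0.73 and it was not called. The study lists RT-qPCR primers for this gene. It also reports that RT-qPCR bore out genes with marked differences in these cells, in a figure that was not read here.

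The other Frizzleds were not called. FZD6 was the most abundant, at 25.7 to 29.3 FPKM in control libraries against 22.7 to 26.6 FPKM in depleted libraries, with a log2 fold change of -0.17 (SE 0.114, adjusted p = 0.427 by limma). FZD1 was at 8.91 to 12.6 and 12.02 to 14.2 FPKM, FZD2 at 8.74 to 10.2 and 7.27 to 9.33 FPKM, and FZD4 at 1.76 to 2.32 and 1.70 to 2.08 FPKM. FZD5 was at 3.29 to 4.25 FPKM and 4.43 to 4.77 FPKM, groups that did not overlap but differed by less than 1.5-fold. FZD7 was at 1.27 to 1.67 and 1.53 to 2.22 FPKM and FZD9 at 0.414 to 0.849 and 0.300 to 0.854 FPKM. Because FZD6, FZD1 and FZD2 carried most of the family, the sum of the 10 Frizzleds was 56.3 ± 1.42 FPKM in control and 55.4 ± 0.361 FPKM in depleted libraries (SD of 3 libraries), and FZD3 went from 2.42 ± 0.519% to 0.741 ± 0.0960% of it.

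**Figure D3:**
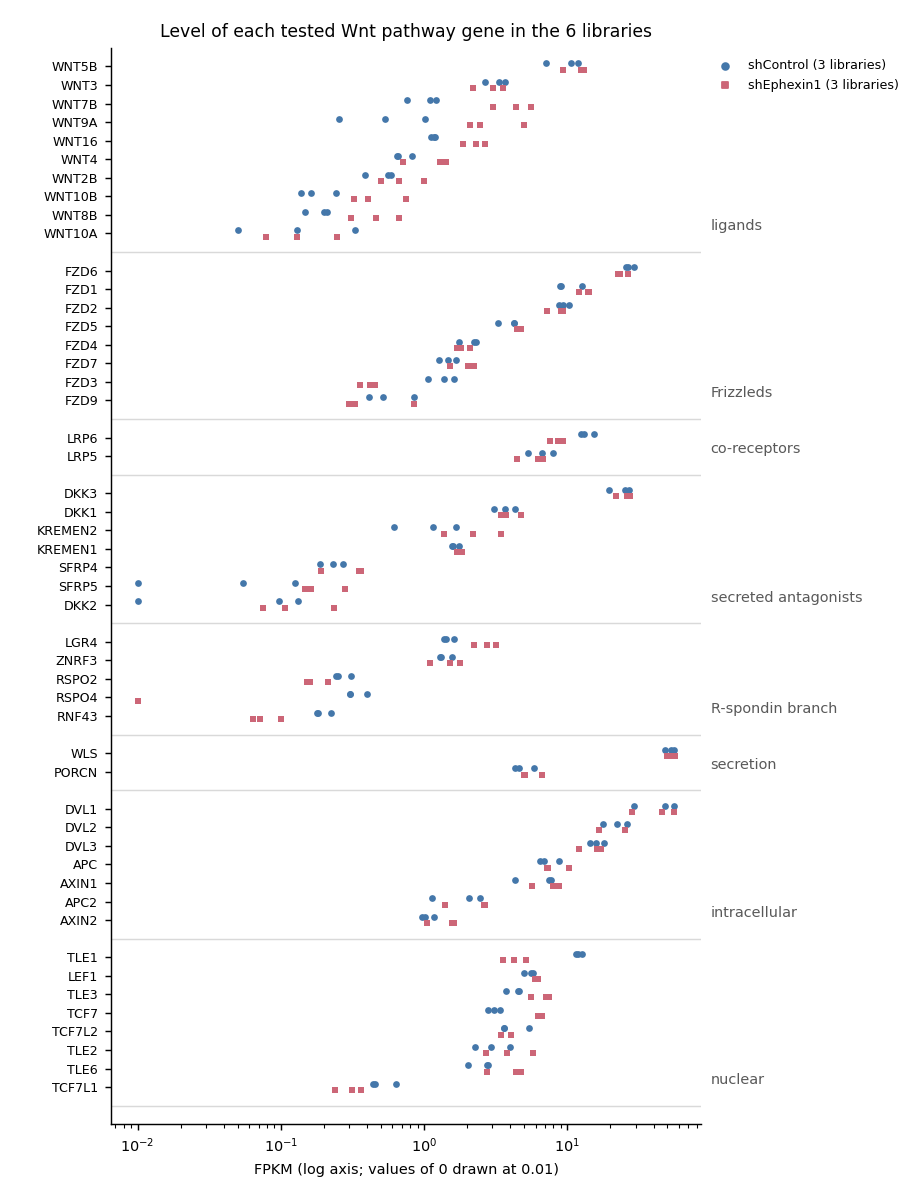
FPKM (horizontal log axis, values of 0 drawn at 0.01) of the 49 Wnt pathway genes tested in each of the 3 shControl libraries (circles) and 3 shEphexin1 libraries (squares), by role and in order of mean level. The most abundant genes, WLS, DVL1, FZD6 and DKK3, have overlapping groups, and the groups of WNT7B, WNT9A, FZD3, RSPO4, TCF7 and TLE1 stand apart.

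LRP6, the co-receptor that is phosphorylated when a Wnt ligand binds, was at 13.1, 15.5 and 12.6 FPKM in control libraries against 8.55, 9.33 and 7.61 FPKM in depleted libraries. The groups were apart, and replicate 2 was the highest library in both. The mean was 13.7 ± 1.57 and 8.50 ± 0.863 FPKM (SD of 3 libraries), a log2 fold change of -0.68 (SE 0.138, adjusted p = 0.0331 by limma), under the fold threshold. LRP6 lies on 12p as does WNT5B, and with the median of that arm subtracted its log2 fold change was -0.25. LRP5, its paralog, was at 5.28 to 7.96 FPKM in control libraries against 4.43 to 6.81 FPKM in depleted libraries.

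Secreted antagonists were not called. DKK3, a member of the Dickkopf family that is not a typical LRP6 ligand, was the most abundant at 19.7 to 26.8 FPKM in control libraries against 21.8 to 27.4 FPKM in depleted libraries, with a log2 fold change of 0.073 (SE 0.154, adjusted p = 0.833 by limma). Of the exonic bases of DKK3, 47.5% overlap USP47 on the opposite strand, and whether strand was used in counting is not given in the sources used here. DKK1, the classical LRP6 inhibitor, was at 3.09 to 4.32 and 3.46 to 4.75 FPKM. Its partner receptor KREMEN1 was at 1.56 to 1.75 and 1.71 to 1.85 FPKM. KREMEN2 was at 1.15, 0.614 and 1.67 FPKM in control libraries against 2.21, 1.38 and 3.43 FPKM in depleted libraries, groups that overlapped although each shEphexin1 library was above the shControl library of the same number. SFRP5, which binds Wnt ligands outside the cell, was at 0.126, 0.0545 and 0 FPKM and at 0.148, 0.162 and 0.281 FPKM, a log2 fold change of 0.94 (SE 0.410, adjusted p = 0.222 by limma). SFRP4 and DKK2 stayed under 0.4 FPKM in every library.

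The R-spondin branch sets how much Frizzled and LRP6 protein stays on the surface: R-spondins bind LGR receptors and hold back the ubiquitin ligases RNF43 and ZNRF3. RSPO4, an R-spondin known for its need in nail formation, was at 0.303, 0.306 and 0.399 FPKM in shControl and was listed at 0 in all 3 shEphexin1 libraries. It was called lower (limma adjusted p = 0.0111), and no fold is given because 1 group is listed at 0. RSPO4 passed the filter only through the group where it was higher. Its call was lost without shControl replicate 1, 2 or 3, without shEphexin1 replicate 1 or 3 (adjusted p from 0.0370 to 0.0640) and with replicates 1 and 3 alone or a pseudocount of 1 FPKM (for the former, adjusted p = 0.0259, range over 18 alternatives 0.000810 to 0.0640). The gene lies on 20p (GRCh37, chromosome 20, 939095 to 982954), whose genes had a median log2 fold change of -0.29.

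LGR4, the receptor of this branch that was expressed, was at 1.43, 1.37 and 1.62 FPKM in control libraries against 2.73, 3.20 and 2.22 FPKM in depleted libraries. The shEphexin1 libraries were all higher. The log2 fold change was 0.83 (SE 0.187, adjusted p = 0.0421 by limma), under the fold threshold. LGR5 and LGR6 were at or below 0.0706 FPKM everywhere. RNF43 was at 0.182, 0.180 and 0.225 FPKM in control libraries against 0.0642, 0.0719 and 0.0998 FPKM in depleted libraries, a log2 fold change of -0.73 (SE 0.295, adjusted p = 0.194 by limma). RNF43 shares 68.4% of its exonic bases with another protein-coding gene annotated on the same strand, so its reads may be split between both. Its paralog ZNRF3 was at 1.30 to 1.57 and 1.10 to 1.77 FPKM. RSPO2 was at 0.244 to 0.308 FPKM in control libraries against 0.151 to 0.212 FPKM in depleted libraries.

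**Figure D4:**
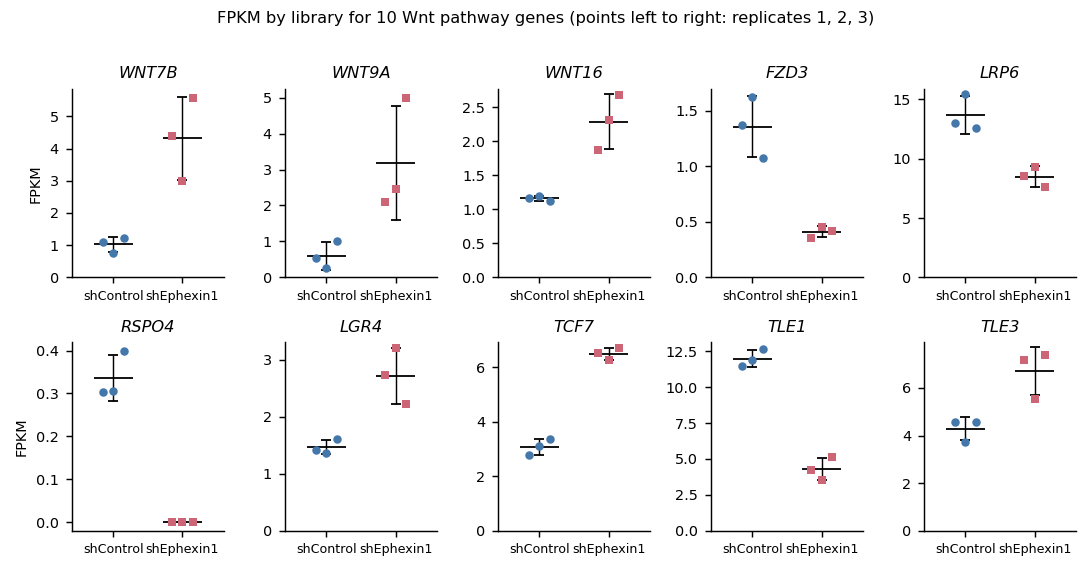
FPKM (vertical axis, from 0) of 10 Wnt pathway genes in each library, with the points of a group ordered as replicates 1, 2 and 3, a line for the mean and bars for the SD of 3 libraries. In each of the 10 plots the shControl and shEphexin1 points do not overlap, and for WNT9A the SD of shEphexin1 is the widest relative to its mean.

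Of the genes of the intracellular relay, none of the 7 tested was called or had groups that did not overlap. Over all genes 0.893% were called higher and 0.999% lower, and 12.8% and 15.4% had groups apart, so 7 genes without a call are no departure from the background. DVL1, a Dishevelled that carries the signal from Frizzled into the cell, was at 47.9, 29.4 and 55.7 FPKM in control libraries against 46.0, 28.5 and 55.3 FPKM in depleted libraries. The libraries of a number were nearly alike across groups and replicate 2 was the low library in both. Its log2 fold change was -0.039 (SE 0.305, adjusted p = 0.960 by limma). DVL2 was at 17.8 to 26.3 and 16.5 to 25.5 FPKM and DVL3 at 14.4 to 18.1 and 12.01 to 17.1 FPKM. The scaffolds of the destruction complex, AXIN1 and APC, were at 4.29 to 7.70 and 6.42 to 8.78 FPKM in shControl and at 5.70 to 8.69 and 7.20 to 10.3 FPKM in shEphexin1. AXIN2, a scaffold that is also a standard readout of β-catenin activity, was at 0.969, 1.02 and 1.17 FPKM in control libraries against 1.63, 1.04 and 1.57 FPKM in depleted libraries. These groups overlapped, with replicate 2 the library of shEphexin1 that lay within the control range. APC2 was at 1.15 to 2.47 and 1.39 to 2.68 FPKM.

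TLE1, a corepressor of the Groucho family that binds TCF/LEF factors, fell in the shEphexin1 cells. It was at 11.4, 11.9 and 12.7 FPKM in control libraries against 4.21, 3.56 and 5.13 FPKM in depleted libraries. The highest shEphexin1 library was far below the lowest shControl library. The mean fell from 11.99 ± 0.617 to 4.30 ± 0.788 FPKM (SD of 3 libraries), 35.9% of the control, a log2 fold change of -1.47 (SE 0.158, adjusted p = 0.00393 by limma). TLE1 lies on the minus strand of chromosome 9 (GRCh37, 84198598 to 84304462). It was called in 17 of 19 alternatives, and was not called without shControl replicate 1 (adjusted p = 0.0358) or without shEphexin1 replicate 1 (adjusted p = 0.0319).

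TLE3, a corepressor of the same family, was at 4.57, 3.74 and 4.56 FPKM in control libraries against 7.16, 5.55 and 7.41 FPKM in depleted libraries. The shEphexin1 libraries were all higher. Its log2 fold change was 0.63 (SE 0.165, adjusted p = 0.0665 by limma). TLE2 was at 2.25 to 3.99 and 2.69 to 5.77 FPKM, and TLE6, a divergent member, at 2.03 to 2.80 and 2.77 to 4.76 FPKM. The ratio of TLE1 to TLE3 in FPKM was 2.50, 3.17 and 2.78 in shControl and 0.589, 0.641 and 0.692 in shEphexin1, so TLE1 was the more abundant of the pair in every shControl library and the less abundant in every shEphexin1 library. Over TLE1 to TLE4 the summed level was 17.9 to 21.2 FPKM in control libraries against 11.8 to 17.1 FPKM in depleted libraries.

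TCF7, the TCF/LEF factor best known from T cells and also called TCF1, was at 2.78, 3.09 and 3.37 FPKM in control libraries against 6.52, 6.25 and 6.69 FPKM in depleted libraries. Both groups were tight and far apart. The mean rose from 3.08 ± 0.295 to 6.49 ± 0.222 FPKM (SD of 3 libraries), a log2 fold change of 1.05 (SE 0.135, adjusted p = 0.00765 by limma). This is close to the fold threshold: corrected for GC content and transcript length its log2 fold change was 0.99 and the gene was not called, although the adjusted p was 0.00123 in a range of 0.000397 to 0.0580 over 19 alternatives. The call was lost too with a pseudocount of 1 FPKM, and when shControl replicate 1 or 3 or shEphexin1 replicate 1 or 3 was left out (adjusted p from 0.0272 to 0.0580). TCF7 lies on the plus strand of chromosome 5 (GRCh37, 133450372 to 133487556).

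The remaining TCF/LEF factors were not called. LEF1 was at 4.97 to 5.73 FPKM in control libraries against 5.92 to 6.22 FPKM in depleted libraries, TCF7L2 at 3.59 to 5.38 and 3.47 to 4.05 FPKM, and TCF7L1, which often acts as a repressor, at 0.441 to 0.637 and 0.239 to 0.364 FPKM. TCF7 made up 23.4 ± 2.31% of the summed TCF/LEF level in shControl and 38.8 ± 1.21% in shEphexin1 (SD of 3 libraries), and its ratio to LEF1 was 0.553 to 0.589 and 1.03 to 1.13. LEF1 was thus above TCF7 in each shControl library and below it in each shEphexin1 library.

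Other genes of the pathway were taken from 6 lists of 111 symbols, written by role, of which 88 genes were tested. Of these, 2 were called higher and 1 lower, beside 0.893% and 0.999% of all genes, and the median log2 fold change was -0.078. An adjusted p of at most 0.05 was reached by 11 of the 88, beside 7.01% of all genes. The groups did not overlap for 14 that were higher and 19 that were lower, beside 12.8% and 15.4% of all genes. Among the 11, RAC1, INVS and BIRC5 were lower by less than 2-fold (log2 fold changes -0.68, -0.70 and -0.67, limma adjusted p = 0.0136, 0.0235 and 0.0326). GPC6, PLAUR and HIPK2 were higher by less than 2-fold (0.80, 0.77 and 0.47, limma adjusted p = 0.0244, 0.0429 and 0.0418). BIRC5 and PLAUR are in the list of reported β-catenin targets. PRICKLE1, a planar polarity protein, was at 1.98, 1.73 and 2.24 FPKM in control libraries against 0.556, 0.406 and 0.460 FPKM in depleted libraries. Its groups were far apart, with a log2 fold change of -1.86 (SE 0.205, adjusted p = 0.00431 by limma), and the call was lost without shControl replicate 1 (adjusted p = 0.0413) or 3 (adjusted p = 0.0261). PRICKLE1 shares 22.6% of its exonic bases with an lncRNA on the opposite strand.

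ROR2, a Wnt receptor of the β-catenin-independent branch, was at 0.801, 0.349 and 0.778 FPKM and at 0.0818, 0.134 and 0.0692 FPKM. PTK7, a planar polarity co-receptor, was at 2.58, 1.43 and 2.52 FPKM and at 0.467, 0.633 and 0.950 FPKM. In both genes all shEphexin1 libraries were lower, and replicate 2 was the lowest shControl library. ROR2 reached the filter of 0.1 FPKM in 3 shControl libraries and 1 shEphexin1 library, so it was tested because of its higher group. Their log2 fold changes were -1.88 (SE 0.357, adjusted p = 0.0275 by limma) and -1.54 (SE 0.317, adjusted p = 0.0342 by limma), and neither was called. With the replicate block both were called (adjusted p = 0.0141 and 0.00682), and the alternatives put it between 0.00492 and 0.131 for ROR2 and between 0.00246 and 0.147 for PTK7. The 15 genes tested in this list of receptors and polarity proteins had a median log2 fold change of -0.084. With groups apart, 1 of the 15 was higher and 4 were lower, beside 12.8% and 15.4% of all genes.

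IGFBP4, a secreted binding protein of insulin-like growth factors that also interferes with Wnt receptors, was at 0.423, 0.243 and 0.300 FPKM in control libraries against 1.71, 1.05 and 1.87 FPKM in depleted libraries. Each shEphexin1 library was more than double the highest shControl library, the log2 fold change was 1.94 (SE 0.290, adjusted p = 0.0129 by limma), and the call was lost with a pseudocount of 1 FPKM, without any shControl library or without shEphexin1 replicate 1 or 3 (adjusted p from 0.0348 to 0.0767). MAPK10, which encodes the kinase JNK3, was at 0.289, 0.391 and 0.184 FPKM and at 0.937, 1.17 and 0.999 FPKM. It was called higher with a log2 fold change of 1.58 (SE 0.270, adjusted p = 0.0198 by limma), a call lost when any of the 6 libraries was left out (adjusted p from 0.0268 to 0.0918), with either other pseudocount, with no filter and with quantile normalization. The more abundant JNK genes MAPK8 and MAPK9 went the other way, with groups that did not overlap. Their means were 8.61 and 17.7 FPKM in control libraries against 5.58 and 12.7 FPKM in depleted libraries. Log2 fold changes were -0.62 (SE 0.160, adjusted p = 0.0628 by limma) and -0.48 (SE 0.129, adjusted p = 0.0706 by limma), and neither was called. Both genes were named after their values were seen.

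No gene was called among the 15 tested of β-catenin and its destruction complex (median log2 fold change -0.16), the 13 nuclear partners (-0.0081) or the 20 reported β-catenin targets (-0.052). Across all genes 0.893% were called higher and 0.999% lower, so lists of this size can hold no call without differing from the background. In the destruction complex list 5 genes were lower and 0 higher with groups apart. The nuclear partners had 2 higher and 1 lower, and the targets 3 higher and 1 lower. Over all genes these shares were 12.8% higher and 15.4% lower. Among the 9 other extracellular regulators 1 was called, the median was 0.43, and with groups apart 6 were higher and 1 lower. Among the 16 genes of the calcium and JNK branch 1 was called and the median was -0.10. SOSTDC1, one of the extracellular regulators, passed the filter through the shEphexin1 libraries alone. It is counted in the median of 0.43, among those 6 and among the 14 genes that were higher with groups apart. In the calcium and JNK branch 2 genes were higher and 7 lower with groups apart. CTNNB1, which encodes β-catenin, was at 133 to 142 FPKM in control libraries against 111 to 117 FPKM in depleted libraries, groups that did not overlap, with a log2 fold change of -0.28 (SE 0.0882, adjusted p = 0.108 by limma). It was named after its value was seen.

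**Figure D5:**
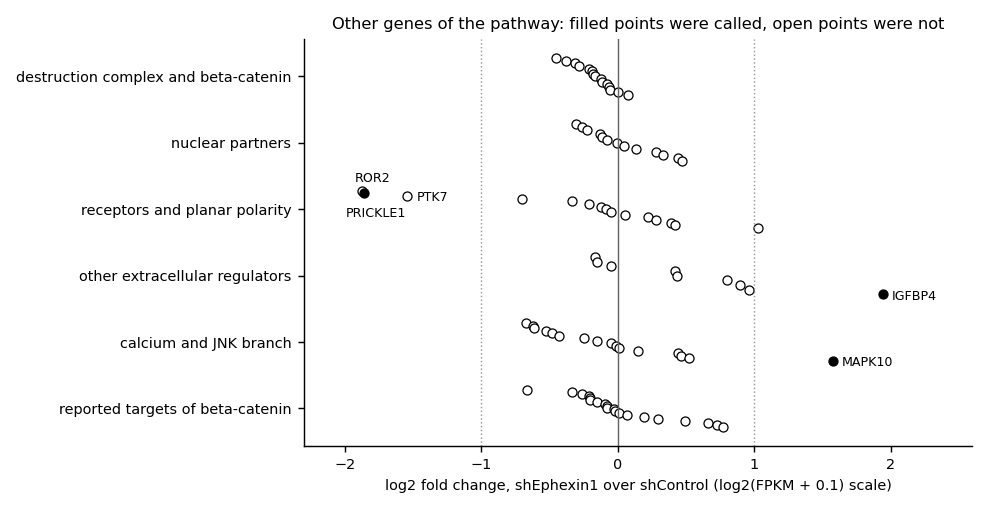
Log2 fold change (horizontal axis, log2(FPKM + 0.1) scale) of the 88 other pathway genes tested, by list, with filled points for the 3 genes called and dotted lines at 2-fold. ROR2, PTK7 and PRICKLE1 lie below -1.5 and IGFBP4 and MAPK10 above 1.5, while the destruction complex, the nuclear partners and the reported targets all stay within 2-fold.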

How the data were processed

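The authors mapped reads of TruSeq stranded total RNA libraries to GRCh37/hg19 with TopHat 2.0.13 and deposited FPKM per gene and library from Cuffdiff 2.2.1 (geometric normalization, pooled dispersion). The gene annotation and filters are not given in the sources used here. All 6 value columns were assigned by library name, and 0 were left out.

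A pseudocount of 0.1 FPKM was added before taking log2, and genes reaching 0.1 FPKM in 3 or more libraries entered limma 3.58.1 (R 4.3.3; linear fit, trended empirical Bayes). Positions, arms, lengths and GC content came from GENCODE release 44 on GRCh37, where all 72 genes were matched. The pipeline was tested on simulated data.

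The members and lists were chosen with earlier results of these data known. Log2 fold changes are given for FZD3, genes called, those whose adjusted p reached 0.05, those with non-overlapping groups and at least a 1.5-fold difference, and the most abundant gene of each role. In the further lists they are given for genes called or with an adjusted p up to 0.05, with levels for those 2-fold apart. CTNNB1, MAPK8 and MAPK9, with an adjusted p above 0.05, are given too, named after their values were seen. Alternatives were pseudocounts of 1 and 0.01 FPKM, no filter or 1 FPKM, quantile normalization, median centring, an untrended variance prior, a replicate block, replicates 1 and 3 alone, correction for GC content and length (loess, 15109 genes) with and without the block, arm medians subtracted, an adjusted p of 0.05, and each library left out. Pairing rests on the replicate numbers of the titles and on the correlations of same-numbered libraries.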

Additional observations from a re-analysis of the deposited data

How the results depend on the processing

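The 5 Wnt pathway genes called were the same with a pseudocount of 0.01 FPKM, no filter, median centring, quantile normalization, eBayes without trend and arm medians subtracted. Subtracting arm medians shifts the fold changes alone and keeps the p values of the main fit. The members called were 2 higher and 3 lower. With a pseudocount of 1 FPKM they were 1 and 1, and with each library left out they ranged from 0 to 2 higher and 0 to 3 lower, with 0 called (FZD3, RSPO4, TCF7, TLE1 and WNT7B all lost) when replicate 1 of either group was left out. A fit with 5 libraries has fewer degrees of freedom. Over all genes, 143 were higher and 160 lower. A pseudocount of 1 FPKM gave 73 and 66, a filter of 1 FPKM 105 lower, the replicate block 309 and 247, replicates 1 and 3 alone 234 higher, the GC and length correction 317 higher and with the block 344, and an adjusted p of 0.05 239 higher. Leaving out a library gave 23 to 159 higher and 37 to 157 lower. Of calls, 47.2% were higher, against 57.6% with the GC and length correction and 60.1% with it and the block.

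In the further lists, 2 genes were called higher and 1 lower. The number higher was 0 with a pseudocount of 1 FPKM, 1 with a filter of 1 FPKM, without a filter or with a pseudocount of 0.01 FPKM, 4 with replicates 1 and 3 alone and 0 to 1 with a library left out. The number lower was 2 with quantile normalization or eBayes without trend, 3 with the replicate block, replicates 1 and 3 alone, the GC and length correction with or without the block or an adjusted p of 0.05, and 0 to 2 with a library left out. The replicate block changed no other call of the genes named than those of WNT9A, ROR2 and PTK7.

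Directions reversed for genes near 0. WLS was at 0.010 with median centring, 0.071 with quantile normalization, 0.085 with the GC and length correction with or without the block, and -0.057 to 0.044 with a library left out. DVL1 was at 0.033 with quantile normalization and -0.31 to 0.24 with a library left out, DKK3 at -0.061 to 0.17, and FZD6 at 0.070 with its arm median subtracted. What caused these differences was not tested. RNF43, RSPO4, SFRP5, WNT8B, WNT10B, ROR2 and MAPK10 have no value with a filter of 1 FPKM.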
